A study of Mus musculus with 2 samples.

Results

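The TRIM family genes of the mouse were described in the embryonic heart. Members were the protein-coding genes whose symbol is Trim followed by a number and, for some, a letter from a to d. The rule found 66 of the 22240 protein-coding symbols, on 67 of 22382 rows. RNA was sequenced from 2 samples of heart, here replicate 1 and replicate 2, of embryonic day 12.5 mice on the background Mixed C57BL/6 x 129S6. No treatment was given and both samples form 1 group, so levels were compared between genes and not between conditions. Levels are FPKM, fragments per kilobase of transcript relative to all mapped fragments of the library, as the authors deposited them. Nothing states that the samples are from different embryos, and their spread (the SD over n = 2) may therefore be technical.

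TRIM proteins carry an N-terminal RING finger, 1 or more B-box zinc fingers and a coiled coil, and most are ubiquitin ligases: the RING binds an E2 enzyme and passes ubiquitin to a substrate that the C-terminal domain usually selects. In striated muscle the muscle RING finger (MuRF) proteins sit at the sarcomere, on titin at the M-band and Z-disc and on microtubules, and take part in the turnover of contractile proteins. Other family members act in gene silencing, in antiviral restriction, in the cytoskeleton of neurons and in the maturation of red cells.

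The muscle RING genes Trim63 (MuRF1), Trim55 (MuRF2) and Trim54 (MuRF3) encode closely related proteins, and their RING fingers are shown first. The stretches below run from the first to the last of the 8 zinc-binding residues, and capitals mark the codons of those cysteines and histidines. They come from the longest coding transcript of each gene in the GENCODE M21 annotation (GRCm38, plus strand). They are shown because the RING is the domain the muscle RING genes are named for. In each of the muscle RING genes the stretch starts in exon 1 and ends in exon 2 and codes for 56 residues: residues 26 to 81 of Trim54 (chr5:31116985-31131116), 26 to 81 of Trim55 (chr3:19644684-19645348) and 23 to 78 of Trim63 (chr4:134315290-134316461). The RING of Trim28, a corepressor of KRAB zinc finger proteins and the most abundant member here, is added for contrast and covers residues 66 to 121 (chr7:13024914-13025323).
Trim54: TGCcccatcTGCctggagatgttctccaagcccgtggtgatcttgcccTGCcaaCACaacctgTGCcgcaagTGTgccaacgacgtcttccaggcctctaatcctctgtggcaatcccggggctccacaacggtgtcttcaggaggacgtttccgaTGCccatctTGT
Trim55: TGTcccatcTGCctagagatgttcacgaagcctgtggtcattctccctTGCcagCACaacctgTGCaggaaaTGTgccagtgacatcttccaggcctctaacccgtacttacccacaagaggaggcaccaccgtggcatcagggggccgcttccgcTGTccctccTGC
Trim63: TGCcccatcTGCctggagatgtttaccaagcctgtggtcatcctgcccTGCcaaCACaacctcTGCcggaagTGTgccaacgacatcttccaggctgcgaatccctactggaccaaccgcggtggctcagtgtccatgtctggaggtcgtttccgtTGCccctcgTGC
Trim28: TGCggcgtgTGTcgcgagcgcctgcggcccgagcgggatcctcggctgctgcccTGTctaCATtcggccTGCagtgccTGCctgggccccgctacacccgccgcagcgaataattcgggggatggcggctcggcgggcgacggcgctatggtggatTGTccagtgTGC

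Within this stretch Trim54 and Trim55 had 83.9% of residues in common, as did Trim55 and Trim63, and Trim54 and Trim63 had 80.4%. Over the bases the identities were 73.2%, 73.8% and 76.8%, in the same order. The stretch of Trim28 shared between 27.8% and 34.0% of its residues with those of the muscle RING genes. Over the whole proteins, of 366 (Trim54), 545 (Trim55) and 355 (Trim63) residues, identity was 63.1% between Trim54 and Trim55 and 61.8% in each of the other pairs. The aligned stretch covered 65.7% of Trim55 when set against Trim54 and 64.8% when set against Trim63. Among members outside this group that aligned over 80% or more of the longer protein, the most alike was Trim59, at 27.2% identity to Trim54.

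All 3 muscle RING genes were present, at levels far apart. Trim55 stood at 100.5 FPKM in replicate 1 and 98.9 FPKM in replicate 2, 99.7 ± 1.10 (SD, n = 2). It was the second most abundant member of the family and lay at the 97.8th percentile of protein-coding symbols. Trim63, which targets sarcomeric proteins for degradation in muscle wasting, had 40.2 and 39.5 FPKM (39.8 ± 0.534, SD, n = 2; percentile 92.8). Trim54, which binds microtubules, had 5.18 and 5.23 FPKM (5.20 ± 0.0350, SD, n = 2; percentile 61.6) and ranked 22 in the family. The order was the same in both libraries and the values did not overlap. Trim55 was 2.50 and 2.51 times as high as Trim63, and 19.4 and 18.9 times as high as Trim54. Trim63 was 7.77 and 7.55 times as high as Trim54. In the files, on build mm9, Trim55 (ENSMUSG00000060913) lies at chr3:19544460-19591599, Trim63 (ENSMUSG00000028834) at chr4:133871035-133885544 and Trim54 (ENSMUSG00000062077) at chr5:31419085-31440003, all on the plus strand.

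Set against the rest of the family, Trim55 and Trim63 were high, and Trim54 exceeded the median of all other members by less. Their median log2(FPKM + 1) exceeded the median of the 63 other members by 4.44 in replicate 1 and 4.58 in replicate 2 (4.51 ± 0.10, SD, n = 2). The difference belongs to Trim63, the middle gene: for Trim55 it was 5.81 ± 0.10 and for Trim54 1.79 ± 0.12. Against only those other members whose mean reached 1 FPKM the difference of the medians was 2.26, again set by Trim63. Trim54 ranked 22 among the 34 members at that level, below the middle, so it was not high among them. The difference of the medians was many times the spread between the libraries, which does not measure the spread among genes. This difference was not tested: over 2 libraries an exact sign-flip test cannot give a two-sided p under 0.5. Genes are not replicates of a condition. Together the muscle RING genes held 22.2% of the family's summed FPKM of 656 in replicate 1 and 22.1% of 650.0 in replicate 2.

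**Figure D1:**
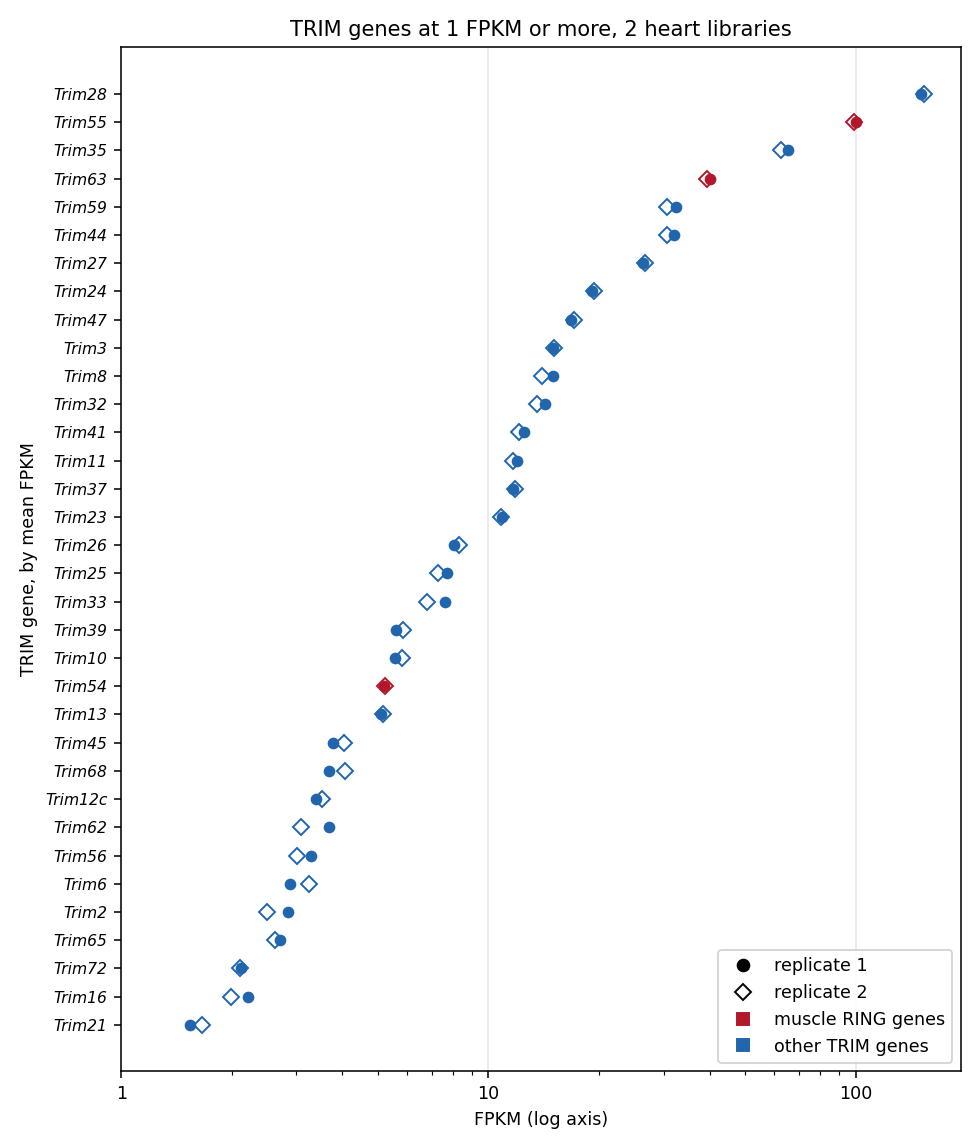
FPKM of the 34 TRIM genes at 1 FPKM or more, on a log axis and ordered by mean, with filled circles for replicate 1, open diamonds for replicate 2 and the muscle RING genes in red. Trim28 leads at 150.3 and 154 FPKM, Trim55 and Trim63 stand among the top 4, and Trim54 lies at 5.18 and 5.23 FPKM.

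Levels of heart muscle genes give the setting of these values. All 7 cardiomyocyte markers were at 1 FPKM or more, among them the sarcomere gene Tnnt2 at 1294 and 1228 FPKM. Trim55 reached 7.76% and 8.05% of the Tnnt2 level, Trim63 3.11% and 3.21%, and Trim54 0.400% and 0.426%. Skeletal muscle also expresses the muscle RING genes. Of 7 genes listed as its markers 2 passed 1 FPKM, Ckm at 15.4 and 10.8 FPKM and Actn3 at 1.03 and 1.30. The list summed to 17.0 and 12.7 FPKM, most of it from Ckm. Regulators of skeletal muscle lay below 1 FPKM: Myog at 0.475 and 0.456, Myod1 at 0.124 and 0.0863, Myf5 at 0.0173 and 0.0116, and Pax7 at 0.00836 and 0.00321 FPKM. The part of skeletal muscle cells in the muscle RING levels was not tested, nor was the part of heart muscle cells in the level of Ckm. In whole tissue, fewer cells of a type and less RNA per cell cannot be told apart, for these and all later levels.

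Known partners and fellow ligases of the muscle RING proteins were present with 1 exception. Of 9 partner genes 8 were at 1 FPKM or more in both libraries, beside 52.4% of all protein-coding symbols. The same share stands beside the counts for all other lists and classes. The highest were Tnni3, cardiac troponin I, at 414 and 391 FPKM, Mybpc3, cardiac myosin-binding protein C, at 309.6 and 289 FPKM, and the autophagy receptor Sqstm1 at 73.1 and 70.7 FPKM. Titin (Ttn), the docking site on the sarcomere, had 4.56 and 3.78 FPKM, and Mylk2, a myosin light chain kinase of skeletal muscle, 0.0372 and 0.0592. All 12 other ubiquitin ligase genes listed for muscle passed 1 FPKM, from Traf6 at 4.49 and 4.46 FPKM to Nedd4 at 393 and 358 FPKM. Next below Nedd4 were Asb2 at 76.9 and 72.0 FPKM and Stub1 at 53.1 and 51.4 FPKM. Fbxo32 (atrogin-1), the ligase usually followed beside Trim63 in wasting muscle, had 13.2 and 13.0 FPKM. Trim55 was 7.64 and 7.59 times, Trim63 3.06 and 3.03 times, and Trim54 0.394 and 0.401 times as high as Fbxo32. All 10 E2 enzyme genes listed for TRIM ligases were above 1 FPKM, led by Ube2d3 at 187 and 186 FPKM, Ube2e3 at 59.0 and 58.5 and Ube2l3 at 50.3 and 48.1. The lowest was Ube2v2 at 2.78 and 2.74 FPKM.

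Over the family, 34 of 66 genes (51.5%) had 1 FPKM or more in both libraries, beside 52.4% of all protein-coding symbols, so the share is near the background. No member passed in 1 library only. At 10 FPKM or more in both libraries there were 16 of 66 (24.2%), against 27.1% of protein-coding symbols. Listed at 0 in both were 5 of 66 (7.58%), against 20.3%: Trim30b, Trim31, Trim40, Trim42 and Trim52. A listed 0 can also be a failed estimate. A further 14 members had means between 0.1 and 1 FPKM, and 13 were lower but not at 0. The family's median was 1.85 FPKM and that of all protein-coding symbols 1.67 FPKM. Of the other 63 TRIM genes, 31 passed 1 FPKM and their median was 0.763 FPKM.

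A few members made up much of the total. Trim28 had 150.3 and 154 FPKM (152 ± 2.56, SD, n = 2; percentile 98.8) and gave 22.9% and 23.7% of the family's summed FPKM. It exceeded Trim55 by 1.50 and 1.56 times. Trim35 followed Trim55 with 65.3 and 62.6 FPKM (63.9 ± 1.97, SD, n = 2), 1.62 and 1.58 times the level of Trim63. The top 4 genes, Trim28, Trim55, Trim35 and Trim63, held 54.3% and 54.6% of the sum, and their order was the same in both libraries. Below them, Trim59 (32.4 and 30.7 FPKM) and Trim44 (32.1 and 30.7 FPKM) did not differ beyond their spread. The family as a whole was 0.169% and 0.170% of the FPKM summed over all rows.

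The PHD finger and bromodomain class, which reads histone tails and represses or tunes transcription, held Trim28, Trim24, Trim33 and Trim66, and 3 of 4 passed 1 FPKM. Trim24, a coregulator of nuclear receptors, had 19.2 and 19.4 FPKM, and Trim28 was 7.83 and 7.92 times as high. Trim33, which acts on SMAD signalling, had 7.59 and 6.81 FPKM, and Trim28 was 19.8 and 22.6 times as high. Trim66 had 0.0181 and 0.0160 FPKM. All 12 listed partners of this class passed 1 FPKM. Highest were the deacetylase Hdac2 at 82.8 and 78.0 FPKM, the heterochromatin protein gene Cbx5 at 70.0 and 65.4 and Cbx1 at 43.0 and 41.3. Setdb1, the histone methyltransferase that Trim28 recruits, was the lowest at 11.0 and 10.3 FPKM.

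The NHL class, with a propeller-shaped substrate domain, had 3 of 3 genes above 1 FPKM. Trim3 (15.0 and 15.1 FPKM) and Trim32 (14.3 and 13.6 FPKM) were close, and Trim32, mutated in a form of limb-girdle muscular dystrophy, had 0.949 and 0.899 times the level of Trim3. Trim2, which acts on neurofilament in neurons, had 2.84 and 2.50 FPKM, and Trim3 was 5.28 and 6.04 times as high. Trim2 and Trim3 proteins share 67.6% of residues. Another 5 members have C-terminal parts found in few relatives, and 5 of 5 passed: Trim59 and Trim13, with transmembrane segments, Trim37, with a MATH domain, Trim23, with an ARF domain, and Trim45, with a filamin domain. Trim37, mutated in mulibrey nanism, had 11.6 and 11.8 FPKM, Trim23 10.9 and 10.8, Trim13 5.11 and 5.16, and Trim45, the lowest, 3.77 and 4.04 FPKM.

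The largest class, best known for antiviral and immune roles, was listed with a C-terminal SPRY domain and neither COS box nor FN3 domain. Membership is by list, and the SPRY domain was not checked in any member. The translated proteins of Trim12a, Trim15 and Trim30b had only 297, 292 and 203 residues. Of the 38 members 17 (44.7%) passed, beside 52.4% of all protein-coding symbols, with a median of 0.534 FPKM. Trim35 led, followed by Trim27 (26.4 and 26.7 FPKM), Trim47 (16.8 and 17.1), Trim41 (12.5 and 12.1) and Trim11 (11.9 and 11.7). The lowest above 0 was Trim50, at 0.00851 FPKM in replicate 1 and listed at 0 in replicate 2. Trim72 (MG53), which patches membrane wounds in striated muscle, had only 2.11 and 2.10 FPKM. Trim25, the ligase that activates the RNA sensor RIG-I, had 7.71 and 7.30 FPKM, and Trim21, the antibody receptor in the cytosol, 1.53 and 1.66 FPKM. Of 14 genes of RNA and DNA sensing and interferon signalling, 9 passed 1 FPKM: Irf3 led at 24.6 and 21.9 FPKM, before Mavs at 9.79 and 9.66 and Tbk1 at 7.64 and 7.35. RIG-I itself (Ddx58) had 2.39 and 2.35 FPKM. Lowest by mean were the interferon-induced Irf7 at 0.203 and 0.263 and Dhx58 at 0.191 and 0.297 FPKM, and in replicate 1 Isg15 was lower still at 0.170 FPKM, with 0.519 in replicate 2. Markers of macrophages, which use many of these genes, passed 1 FPKM in 6 of 7 cases, among them Lyz2 at 22.3 and 21.1 and Csf1r at 3.57 and 3.06. Ptprc, the other, had 0.172 and 0.209 FPKM. All 5 endothelial markers passed, from Kdr at 13.0 and 11.3 to Egfl7 at 69.2 and 71.1 FPKM. The part of these cells in the SPRY genes' levels was not tested.

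A pair of SPRY genes known from red cell maturation differed in level. Trim10 had 5.58 and 5.82 FPKM, and Trim58, which removes dynein from maturing erythroblasts, 0.893 and 0.633 FPKM. Trim10 was 6.25 and 9.21 times as high. All 7 erythroid markers were above 1 FPKM, from Klf1 at 1.60 and 2.09 FPKM to Hbb-y at 16536 and 15387 FPKM. Trim10 was 9.92% and 10.3%, and Trim58 1.59% and 1.11%, of the level of the heme synthesis gene Alas2, 56.3 and 56.8 FPKM. The part of blood cells in the level of either gene was not tested.

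The microtubule-binding class with a COS box, an FN3 domain and, for most, a SPRY domain had 0 of 5 genes at 1 FPKM. Several of its proteins are neuronal. Mid1 and Mid2, of the same structure but with other symbols, are not counted in it, and both passed 1 FPKM. The muscle RING proteins, which also carry a COS box, are not counted in it either. Trim46, a gene of the axon initial segment, was highest at 0.559 and 0.692 FPKM, followed by Trim36 at 0.375 and 0.390. The neuronal Trim67 had 0.324 and 0.217 FPKM and Trim9 0.152 and 0.157, and Trim42 was listed at 0. Of 6 neuron markers 3 passed, the highest being Tubb3 at 3.35 and 4.26 FPKM. Among the 8 members with no known C-terminal domain, 3 passed: Trim44 with 32.1 and 30.7 FPKM, Trim8, a regulator of cytokine signalling, with 15.0 and 14.0, and Trim56 with 3.28 and 3.01 FPKM. Trim29, an epithelial gene, had 0.00480 and 0.0188 FPKM, and of 5 epithelial markers 1 passed, Krt8 at 3.59 and 4.11 FPKM. Germ cell and early embryo markers passed in 0 of 5 cases, with Sycp3 highest at 0.385 and 0.295 FPKM and Pou5f1 listed at 0.

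**Figure D2:**
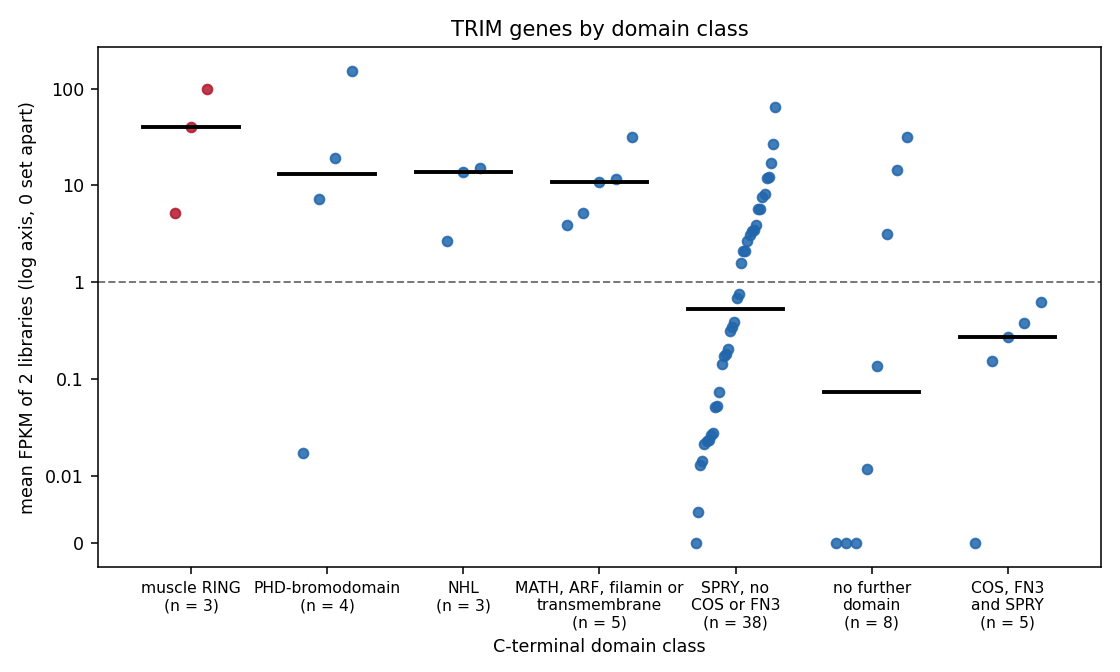
Mean FPKM of each TRIM gene by domain class on a log axis, with genes listed at 0 set apart. Points are genes, bars are class medians and the dashed line is at 1 FPKM. All of the muscle RING, NHL and single-type genes lie above 1 FPKM in both libraries. So do 17 of 38 genes listed with SPRY but no COS or FN3 domain. In the class labelled COS, FN3 and SPRY 0 of 5 do.

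Genes of TRIM structure that go by other symbols were not members and are given for reference. Of 6 such genes 3 passed 1 FPKM: Mid2 with 12.8 and 12.1 FPKM, Mid1, a microtubule-bound ligase, with 12.2 and 7.77, and Pml, of the nuclear bodies, with 6.81 and 6.53 FPKM. Cmya5, a muscle protein, had 1.49 and 0.993 FPKM, and Mefv (pyrin) was listed at 0. Mid1 differed more between the libraries than any TRIM member above 1 FPKM.

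The libraries gave nearly the same values for the members. Among the 34 whose mean reached 1 FPKM, the absolute log2 ratio of replicate 2 to replicate 1 had a median of 0.06 and a maximum of 0.25, which is 1.19-fold, for Trim62. Values were higher in replicate 2 for 16 and in replicate 1 for 18, while over all protein-coding symbols at that level 3605 were higher in replicate 2 and 8152 in replicate 1. Over these 11757 symbols the median absolute log2 ratio was 0.07 and the 95th percentile 0.29. Of the 23 members whose mean reached 5 FPKM, 0 were 2-fold apart, where 0.104% of 8663 protein-coding symbols were. With no such minimum 10 of 61 members above 0 were 2-fold apart, beside 11.6% of 17733 symbols. All 10 lay below 1 FPKM, from Trim7 (0.200 and 0.483 FPKM) to Trim50. In the order of levels, 12 of the 33 neighbouring pairs among the 34 genes were closer than the larger SD of the pair, such as Trim3 and Trim8, Trim11 and Trim37, and Trim39 (5.60 and 5.84 FPKM) and Trim10.

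**Figure D3:**
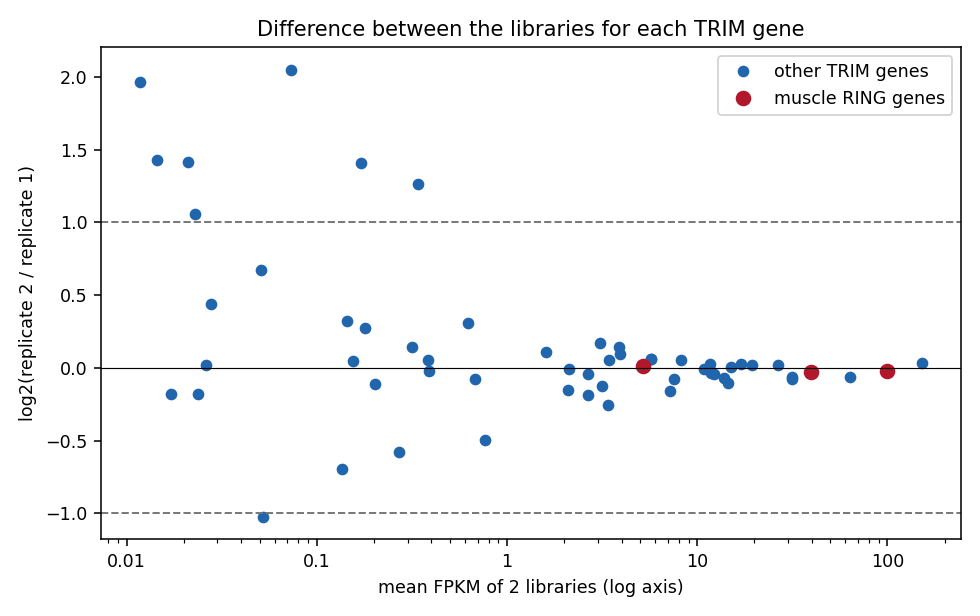
Log2 ratio of replicate 2 to replicate 1 for each TRIM gene above 0 in both libraries, against its mean FPKM on a log axis, with the muscle RING genes in red and dashed lines at 2-fold. Members above 1 FPKM lie close to 0, at most 1.19-fold apart, and the spread is wider among low genes.

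Many members lie beside each other. With at most 500 kb between neighbours, 30 of the 66 fell into 8 clusters, of which 10 passed 1 FPKM (median 0.260 FPKM), while 24 of the 36 lone members passed (median 4.52 FPKM). These are 33.3% and 66.7%, beside 52.4% of all protein-coding symbols. All 3 muscle RING genes and Trim28 stand alone, on chromosomes 3, 4, 5 and 7. The cluster of 10 genes on chromosome 7 (mm9 chr7:111367307-111656363, 289 kb), which holds Trim5 and its relatives, had Trim12c at 3.39 and 3.52 FPKM and Trim6 at 2.88 and 3.25. Its other 8 genes lay below 1 FPKM, led by Trim5 at 0.699 and 0.662 FPKM, and Trim30b was listed at 0. In the cluster of 5 on chromosome 17 (mm9 chr17:36974079-37047159), Trim26 (8.04 and 8.34 FPKM) and Trim10 passed, Trim15 had 0.128 and 0.160 FPKM, and Trim31 and Trim40 were listed at 0. On chromosome 11 Trim11 stood 73.4 and 59.2 times above its neighbour Trim17 (0.163 and 0.197 FPKM).

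**Figure D4:**
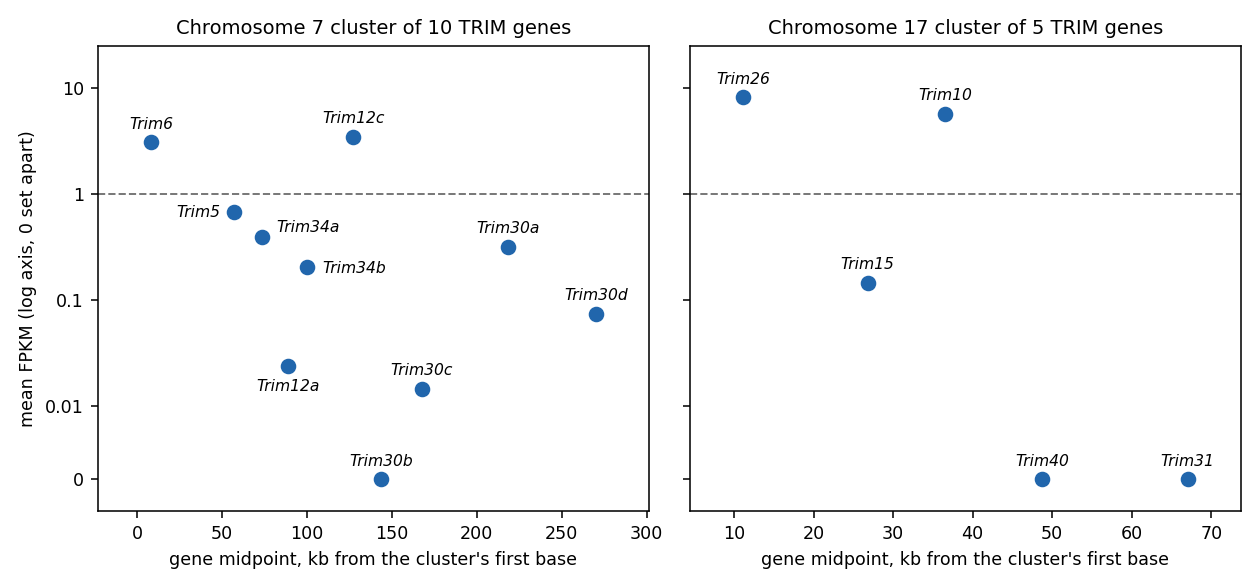
Mean FPKM on a log axis of the TRIM genes in the clusters of 10 on chromosome 7 and 5 on chromosome 17, against the distance of each gene's midpoint from the cluster's first base in kb, with the dashed line at 1 FPKM. In each cluster 2 genes pass: Trim6 and Trim12c, and Trim26 and Trim10.

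Several levels are uncertain because members share sequence or position with other rows, and the library kit does not mark strand. Proteins of Trim34a and Trim34b share 96.3% of residues, Trim12c and Trim5 94.4%, and Trim30a and Trim30d 82.7%. Of 65 members with a usable transcript model, 22 share 75 or more bases at 98% identity or better with a transcript of another symbol, 8 of them above 1 FPKM: Trim12c, Trim27, Trim35, Trim47, Trim54, Trim56, Trim65 and Trim72. For Trim54 these are 236 bases of the antisense row Gm15469, which had a mean of 0.153 FPKM. Of 9 members that overlap another row at 1 FPKM or more in both libraries, 3 pass that level themselves: Trim47 and Trim65, which share 5365 bases, and Trim41, which shares 31 bases with Gnb2l1 at 590.4 and 588 FPKM. Trim46 overlaps Krtcap2 (95.7 and 93.7 FPKM) by 344 bases and Trim14 overlaps Nans (27.0 and 26.2 FPKM) by 9852 bases. How fragments in these overlaps were divided was not tested. The row named Trim61 bears a gene ID that GENCODE M21 assigns to Apela, so which gene its 0.168 and 0.104 FPKM measure is uncertain. Names of Trim43a and Trim43c are exchanged between the files and that annotation.

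The RING spacing C-x2-C-x(9-39)-C-x(1-3)-H-x(2-3)-C-x2-C-x(4-48)-C-x2-C was found in the translated coding sequences of 52 of 65 members, 28 of them above 1 FPKM. It was not found in 13, of which 6 were above 1 FPKM: Trim44, Trim24, Trim41, Trim37, Trim23 and Trim16. A missing match says only that these spacings do not occur. Of 5 members listed as lacking a RING, Trim44, Trim16, Trim14, Trim66 and Trim29, 2 were above 1 FPKM, and Trim66 did match the spacing. Protein length ran from 203 residues (Trim30b) to 1344 (Trim66), with a median of 497.

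Promoter sequence was read from RefSeq (GRCm38.p6) for 50 of 65 members, as the 250 bases before each listed start site. These are 64 windows, and a gene with several counts once, by its highest number of CG pairs and by a motif in any of them. Among the muscle RING genes Trim63 and Trim54 had an entry, and their windows are shown because they differ from Trim28 in CG pairs. Trim63 (chr4:134314870-134315119) held 4 CG pairs, Trim54 (chr5:31116362-31116611) 2 and Trim28 (chr7:13023902-13024151) 17, all on the plus strand. Capitals mark the E-box CANNTG, searched on both strands, which as a palindrome reads alike on both, with 3, 2 and 1 matches.
Trim63: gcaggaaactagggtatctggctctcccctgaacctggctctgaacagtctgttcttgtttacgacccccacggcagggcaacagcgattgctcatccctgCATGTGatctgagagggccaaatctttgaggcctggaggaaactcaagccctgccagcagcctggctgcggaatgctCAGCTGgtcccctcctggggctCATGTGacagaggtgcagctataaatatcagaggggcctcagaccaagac
Trim54: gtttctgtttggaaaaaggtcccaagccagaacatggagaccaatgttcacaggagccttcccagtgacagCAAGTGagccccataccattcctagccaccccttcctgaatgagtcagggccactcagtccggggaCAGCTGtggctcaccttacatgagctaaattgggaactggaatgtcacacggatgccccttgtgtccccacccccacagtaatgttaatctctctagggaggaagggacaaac
Trim28: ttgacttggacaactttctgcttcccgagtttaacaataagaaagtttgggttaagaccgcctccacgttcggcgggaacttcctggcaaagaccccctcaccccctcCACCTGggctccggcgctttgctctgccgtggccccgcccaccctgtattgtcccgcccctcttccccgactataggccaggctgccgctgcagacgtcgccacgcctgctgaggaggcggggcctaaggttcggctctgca

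Promoters of members above 1 FPKM held more CG pairs. Of 26 such members 18 (69.2%) had 10 or more, with a median of 14, against 5 of 24 (20.8%) below 1 FPKM, with a median of 3. The same split ran through all protein-coding symbols, 81.4% of 8356 against 22.4% of 6555, with medians of 18 and 3. Trim63, Trim54, Trim10 (1 CG pair) and Trim12c (0) were among the members above 1 FPKM with few. An E-box was found for 35 of 50 members (70.0%), beside 66% of 14911 protein-coding symbols with a promoter. The MEF2 motif was found for 1, Trim39, and the CArG box for 0, beside 3.0% and 1.58% of those symbols.

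**Figure D5:**
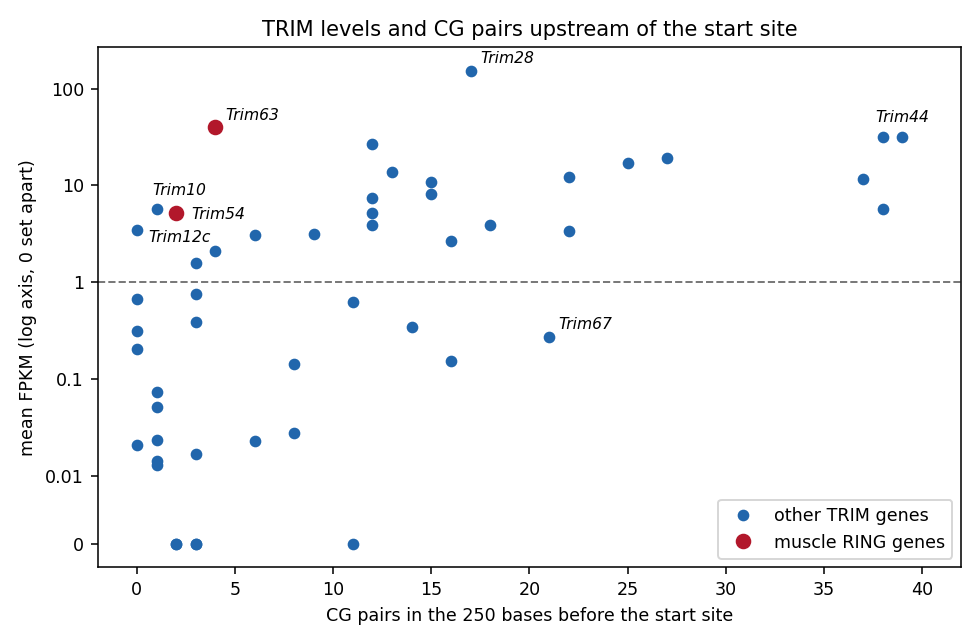
Mean FPKM on a log axis against the number of CG pairs in the 250 bases before the start site (the highest where a gene has several) for 50 TRIM genes, muscle RING genes in red, genes at 0 set apart and the dashed line at 1 FPKM. Most genes with 10 or more pairs lie above the line, and Trim63, Trim10, Trim54, Trim12c, Trim72 and Trim21 lie above it with 4 pairs or fewer.

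The core of the interferon-stimulated response element, GAAA, any 2 bases and GAAA again, on either strand, was found for 5 of 50 members (10%), beside 3.42% of 14911 protein-coding symbols. A match for each member is shown with its surroundings, capitals marking the core, since 4 of the 5 members lie in the chromosome 7 cluster. In the Trim26 stretch the core also occurs as GAAAgtGAAA, which overlaps the marked match and is left partly in lower case. The stretches are at chr7:104288136-104288165 (Trim5), chr7:104353359-104353388 (Trim12c), chr7:104465210-104465239 (Trim30a), chr7:104507871-104507900 (Trim30d) and chr17:36836982-36837011 (Trim26), on the plus strand except for Trim26.
Trim5: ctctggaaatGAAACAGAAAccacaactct
Trim12c: agctggaaatGAAACAGAAAccacaactct
Trim30a: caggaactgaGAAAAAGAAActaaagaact
Trim30d: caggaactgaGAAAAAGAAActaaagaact
Trim26: ccgggcccgaGAAAAGGAAAgtgaaatcgg

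Trim30a and Trim30d carried the same 30 bases, and Trim5 and Trim12c the same core. Members with a match stood at high and low levels: Trim26 had 8.04 and 8.34 FPKM and Trim12c 3.39 and 3.52, while Trim5 had 0.699 and 0.662, Trim30a 0.301 and 0.332, and Trim30d 0.0286 and 0.118 FPKM. A match is a description of the letters and not of a bound site.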

How the data were processed

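The authors deposited 1 table of FPKM per sample. GSNAP, Cufflinks, Cuffnorm and the builds mm9 and hg19 are named, with no versions, per the submitters' processing notes. Trizol extraction and the TruSeq RNA v2 kit are per the labels' protocols. For strand and multiply matching reads the setting is not given in the sources used here. The files place genes on mm9, and sequences are on GRCm38.

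The members and lists were chosen with earlier results of these data known. Of the naming pattern 1 symbol is not reported here. Rows of 1 symbol were summed. A gene passed at 1 FPKM or more in both libraries, and log2 values used a pseudocount of 1 FPKM, which understates differences of low genes. Every member could be named; values were given for the muscle RING genes, the highest other members and the extremes of each class, and the highest 3 and lowest of each partner list. Other genes were named where a result turns on them. With 2 libraries no p-value was computed.

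Absolute depth is unknown: among low genes a fragment was worth 1.33 times as much in replicate 2, so replicate 1 was deeper. Counts and intervals of counting error cannot be given. Limits, pseudocount, filters, rescaling and each library left out were tried as alternatives. Proteins were translated from GENCODE M21 coding sequences, where RefSeq proteins had been planned, and aligned with Biopython 1.88; shared bases were searched with BLAST 2.17.0. Tables were made with pandas 2.3.3 and NumPy 2.4.6 and checked on simulated data.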

Additional observations from a re-analysis of the deposited data

How the results depend on the processing

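The count of 34 TRIM genes at 1 FPKM or more was 37 at a limit of 0.5 FPKM and 32 at 2 FPKM, and 34 with either library left out, with the highest row per symbol, and without the row named Trim61. The excess of the muscle RING genes over the other members, 4.51 on the log2(FPKM + 1) scale, kept its sign in every alternative tried and ranged from 4.44 to 4.58 with a library left out. It was 5.49 with a pseudocount of 0.1, 3.16 with means in place of medians, 2.26 against other members at 1 FPKM or more, 1.79 for Trim54 alone and 5.81 for Trim55 alone. In alternatives chosen after seeing the data it was 4.24 without the row named Trim61 and 3.22 against members in no cluster. Trim54 alone was not set against only the members at 1 FPKM or more, where it ranked 22 of 34, below the middle. The kept sign therefore does not cover that comparison. The count of members 2-fold apart, 0, was 10 with no minimum level and 0 under the other settings. Rescaling replicate 2 by 1.03 gave 5.28 FPKM for Trim54, 101 for Trim55 and 40.4 for Trim63. No paired analysis was possible because there is 1 group. Without counts, precision of values below 1 FPKM is unknown.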

Other observations

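Outside the protein-coding rows, the pseudogene Trim30e-ps1 (mm9 chr7:111681473-111683875), next to the cluster of 10 TRIM genes on chromosome 7, had 0.0284 FPKM in replicate 1 and 0.0337 in replicate 2.

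Trim60 and the row named Trim61 each overlap the processed transcript Gm10664 on the same strand, by 3833 bases. Gm10664 had 14.1 FPKM in replicate 1 and 16.2 in replicate 2, while Trim60 had 0.0234 and 0.0318 FPKM and the row named Trim61 0.168 and 0.104 FPKM. How the authors' counting divided fragments between these rows was not tested.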
